A study of Mus musculus with 8 samples.

Results

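Regulators of smooth muscle transcription were described in sorted pericytes and SMCs of mouse hindlimb muscle. The 8 genes were chosen by name as Myocd, Srf, Mkl1, Mkl2, Klf4, Klf5, Mef2c and Gata6, and each matched 1 row among the 37979 genes of the expression table, so 8 of 8 were found. All 8 were above 0 in at least 1 library and were among the 27414 genes tested. Every mouse carried the Ai14 reporter and SM22α-Cre (Ai14+/-;SM22α-Cre+), so pericytes and SMCs came from animals of the same genotype. Mice of both sexes, 3 to 4 months old, were used, 18 in the study as a whole, and how many went into the libraries is not given in the sources used here. Cre is driven by the SM22α (Tagln) promoter, and a cell that has ever used this promoter keeps the red fluorescent protein tdTomato. From hindlimb muscle, PDGFRβ+tdTomato- cells were sorted as pericytes and PDGFRβ+tdTomato+ cells as SMCs, after cells stained for CD31 or CD45 and dead cells had been gated out. Each library came from about 60000 cells pooled from multiple sorts, with 4 libraries per cell type, numbered 1 to 4 in both. Mural cells at pre-capillary arterioles that carry tdTomato would fall among the SMCs.

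SRF is a DNA-binding factor that sits on a short A/T-rich element, the CArG box, in front of genes for contractile proteins and of immediate early genes. Alone it activates weakly. Myocardin (Myocd), made in smooth and cardiac muscle, and the related factors MRTF-A (Mkl1) and MRTF-B (Mkl2), made widely, bind SRF and turn on the contractile genes, and the MRTFs are held in the cytoplasm by monomeric actin. KLF4 opposes myocardin and KLF5 accompanies the synthetic, growing state of SMCs, whereas MEF2C and GATA6 act in muscle and vascular development. Values were deposited as FPKM (fragments per kilobase, scaled to the mapped reads of a library), so levels can be compared between genes per length. The test was limma on log2(FPKM + 1) with Benjamini-Hochberg adjustment over all genes tested, and a gene was called at a q value below 0.05. Means are given ± SD over n = 4 libraries per cell type, and fold changes as log2 of SMCs over pericytes.

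The libraries were of similar depth. Steps between low FPKM values put the relative depth of the pericyte libraries at 0.859 to 1.04 and that of the SMC libraries at 0.984 to 1.06, and 12713 to 13194 genes reached 1 FPKM in a library. The number of reads behind a value is unknown. Pericyte replicate 2 had the largest FPKM sum, 1190435 against 656405 to 782014 in the other libraries. Replicates 1 and 2 scored -60.87 to -15.36 and replicates 3 and 4 scored 37.93 to 43.28 on the second principal component in both cell types (16.2% of the variance), although the labels give all libraries one batch. The pericyte libraries held leukocyte transcripts, with 5 of 8 leukocyte markers (among them Ptprc and the lymphocyte genes Cd3e, Cd79a and Lck) called higher in pericytes and a summed level of 2126 to 3629 FPKM against 836 to 1418 FPKM in SMCs. The myeloid markers were not called, with Csf1r at 18.7 ± 13.0 FPKM in pericytes and 32.9 ± 26.2 FPKM in SMCs, Lyz2 at 1093 ± 407 and 1116 ± 237 FPKM, and Itgam at 4.96 ± 2.76 and 2.71 ± 1.52 FPKM. The SMC libraries were higher in 6 of 6 fibroblast markers (2023 to 3158 against 390 to 638 summed FPKM) and in 5 of 6 endothelial markers (236 to 704 against 54.0 to 99.1 summed FPKM). No marker of these lists was at 0 in any library. Of 7 mural markers, which include Pdgfrb, 7 were above 0 in every library and 1, Rgs5, was called higher in SMCs, and their summed level was 37 to 97 FPKM in pericytes and 75.9 to 328 FPKM in SMCs. Pdgfrb, whose protein both groups were sorted on, had 3.21 to 17.6 FPKM in pericytes and 15.6 to 91.5 FPKM in SMCs (limma q = 0.0973). In the same pericyte libraries Cd79a had 415 to 1145 FPKM, Lck 350 to 491 FPKM and Ptprc 80.6 to 230 FPKM. In such bulk samples fewer cells of a type and less RNA per cell cannot be told apart.

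Of the 8 regulators, 3 were called different. Klf4 and Gata6 were higher in SMCs and Mef2c was higher in pericytes, and in these 3 genes the groups did not overlap. Among all genes tested, 21.8% were called, 11.2% higher in SMCs and 10.6% higher in pericytes, and in 24.6% the groups did not overlap. Calls were more frequent among the 13612 genes whose mean reached 1 FPKM, of which 5331 were called. Every regulator except Gata6 is in that range, so both shares are the background for reading 3 of 8. The shares over all genes tested that stand beside the lists below are thus low for expressed genes. No regulator reached a log2 fold change of 2 in either direction beside the q value, which 5.89% of genes did. The other 5 regulators, Myocd, Srf, Mkl1, Mkl2 and Klf5, were not called and overlapped between the groups. The median log2 fold change over the 8 regulators (SMCs over pericytes) was 0.68, against -0.02 over all genes tested.

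**Figure D1:**
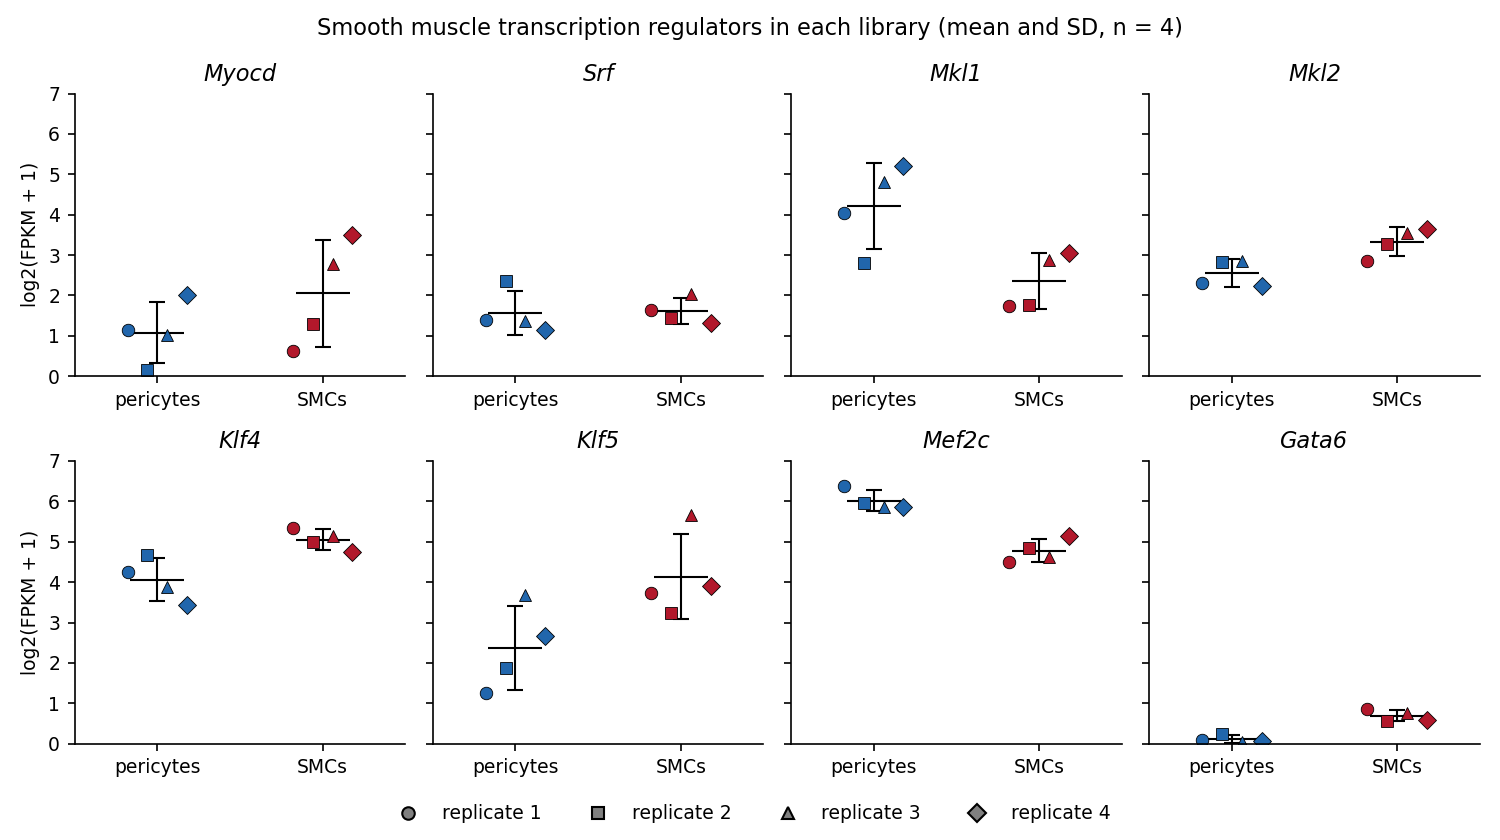
Level of each regulator in each library as log2(FPKM + 1), with pericytes in blue and SMCs in red, a marker shape for each replicate number, and the mean with its SD (n = 4) as a bar. Klf4 and Gata6 lay higher in every SMC library and Mef2c in every pericyte library, and the other 5 genes overlapped.

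Myocd, the gene of the coactivator that defines smooth muscle, was low in both cell types and differed mainly between libraries. It had 1.20, 0.113, 1.03 and 3.03 FPKM in pericyte replicates 1 to 4, and 0.540, 1.45, 5.91 and 10.4 FPKM in SMC replicates 1 to 4. The groups overlapped, since SMC replicate 1 lay below 3 of the pericyte libraries and pericyte replicate 4 lay above SMC replicates 1 and 2. Mean levels were 1.34 ± 1.22 FPKM for pericytes and 4.57 ± 4.52 FPKM for SMCs. The SMC over pericyte difference was 0.97 on the log2 scale (standard error 0.70, 95% confidence interval -0.66 to 2.61, limma q = 0.426), an interval that includes 0. Within replicates 1 and 2 the SMC mean was 0.31 log2 units above the pericyte mean, and within replicates 3 and 4 it was 1.63 log2 units above. Without SMC replicate 4 the difference was 0.49 and without SMC replicate 1 it was 1.45, both still not called. Its gene occupies 64990063 to 65083491 of chromosome 11 (NCBI Build 37, minus strand).

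Srf, the DNA-binding partner of the myocardin family, was low in both cell types, and no difference between them was called. It had 1.62, 4.09, 1.57 and 1.22 FPKM in pericyte replicates 1 to 4 and 2.11, 1.71, 3.11 and 1.50 FPKM in SMC replicates 1 to 4. The highest value was in pericyte replicate 2 and the lowest in pericyte replicate 4, so the SMC values fell inside the pericyte range. The log2 fold change was 0.04 (standard error 0.29, 95% confidence interval -0.63 to 0.72, limma q = 0.939), and its sign turned without SMC replicate 3 (-0.10) and without pericyte replicate 1 (-0.01), 3 (-0.02) or 4 (-0.09). Srf spans 46683788 to 46693111 of chromosome 17 (NCBI Build 37, minus strand), where a long noncoding RNA overlaps it on the other strand, listed at no more than a mean of 0.0127 FPKM in either group.

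The Srf promoter is shown because SRF is known to bind CArG boxes, and this promoter was the only one of the matched regulator promoters with an exact match. RefSeq promoter sequences (GRCm38.p6, 250 bases before to 50 after each start site) matched 5 of the 8 regulators, with 10 promoters in all, and Myocd, Klf5 and Gata6 had no entry. The 250 bases before the Srf start site, chr17:46556163-46556412 on the minus strand, are given from 5′ to 3′ with exact CArG boxes in capitals.
Srf: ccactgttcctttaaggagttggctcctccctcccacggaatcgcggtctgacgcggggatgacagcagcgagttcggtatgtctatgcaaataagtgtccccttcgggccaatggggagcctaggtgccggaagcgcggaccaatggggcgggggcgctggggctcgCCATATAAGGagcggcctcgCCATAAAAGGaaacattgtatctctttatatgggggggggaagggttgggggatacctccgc

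These 2 boxes start 82 and 62 bases before the start site. The motif searched was the CArG box, a palindromic element of 10 bases, so a match on one strand is also a match on the other. It was found in 1.63% of all 32851 promoters, and in a promoter of 1.81% of all 27025 genes with an entry. Among the lists of genes around the regulators, it was found in promoters of 2 of 13 contractile genes, 1 of 7 immediate early genes, 3 of 15 SRF and myocardin partners, 1 of 10 genes of actin control and 1 of 12 other KLF genes that had an entry, and in none of 3 ternary complex factors, 4 GATA genes and 3 MEF2 genes. Among the marker lists it was found in 2 of 6 muscle fibre and satellite cell genes. Boxes of Myl9, a contractile light chain (chr2:156775293-156775322), of Fhl1, a LIM protein of muscle (chrX:56779571-56779600), of Fhl2, a LIM cofactor of SRF (chr1:43163973-43164002, minus strand), of Vcl, the gene of the adhesion protein vinculin (chr14:20929161-20929190), of Egr2, a zinc finger factor (chr10:67537787-67537816), and of Hopx, a homeodomain protein that restrains SRF (chr5:77115187-77115216, minus strand), are shown with 10 flanking bases on each side. They stand for the 6 genes with a box among the contractile, immediate early and partner lists, with 1 box shown for each. Fhl2 and Egr2 each had another box that is not shown.
Myl9: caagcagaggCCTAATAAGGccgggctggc
Fhl1: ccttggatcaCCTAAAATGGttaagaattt
Fhl2: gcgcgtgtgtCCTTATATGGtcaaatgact
Vcl: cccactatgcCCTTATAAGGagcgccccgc
Egr2: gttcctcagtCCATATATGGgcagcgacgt
Hopx: taacccgagtCCAAATAAGGaagctgggga

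A match is a description of the letters and was not tested for binding. Fhl1 had 39.3 ± 18.8 FPKM in pericytes and 228 ± 31.4 FPKM in SMCs and was called (limma q = 0.00165). Fhl2 rose from 6.23 to 11.0 FPKM in pericytes to 20.7 to 25.0 FPKM in SMCs (limma q = 0.000885), and Myl9 had 321 to 953 FPKM in pericytes and 1052 to 2706 FPKM in SMCs without being called (limma q = 0.0625). The other 3 genes were not called. Vcl had 5.28 ± 3.85 FPKM in pericytes and 13.5 ± 10.8 FPKM in SMCs (log2 fold change 1.10, limma q = 0.378), and Egr2 had 31.9 ± 11.8 FPKM in pericytes and 49.6 ± 2.16 FPKM in SMCs (log2 fold change 0.70, limma q = 0.129). Hopx had 81.5 ± 26.9 FPKM in pericytes and 55.8 ± 7.42 FPKM in SMCs (log2 fold change -0.50, limma q = 0.167). Srf itself, with 2 boxes, had a log2 fold change near 0.

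The genes of MRTF-A and MRTF-B, Mkl1 and Mkl2, leaned in opposite directions. Mkl1 had 15.4, 5.95, 26.8 and 35.9 FPKM in pericyte replicates 1 to 4 and 2.35, 2.37, 6.40 and 7.24 FPKM in SMC replicates 1 to 4. Pericyte replicate 2 lay inside the SMC range and the other 3 pericyte libraries lay above every SMC library. The log2 fold change was -1.85 (standard error 0.58, 95% confidence interval -3.22 to -0.49), and limma gave q = 0.0627, which misses the threshold. Without pericyte replicate 2 it was -2.32 and was called (limma q = 0.0128). It was also called in 6 of 9 other settings, among them a filter that kept genes with 1 FPKM or more in 4 or more libraries (limma q = 0.0161). The difference between the cell types was -1.67 log2 units within replicates 1 and 2 and -2.04 within replicates 3 and 4.

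Mkl2 had 3.94, 6.11, 6.25 and 3.67 FPKM in pericyte replicates 1 to 4 and 6.17, 8.63, 10.7 and 11.4 FPKM in SMC replicates 1 to 4. The groups overlapped by 1 library on each side, as SMC replicate 1 lay below pericyte replicate 3. Its log2 fold change was 0.77 (standard error 0.23, 95% confidence interval 0.23 to 1.31, limma q = 0.0513), just outside the threshold, and it was called in 5 of 9 other settings, without SMC replicate 1 (limma q = 0.0244) and without pericyte replicate 2 (limma q = 0.0490).

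A ratio of both genes within a library depends little on the scaling of that library. The Mkl2 level lay 0.97 ± 0.43 log2 units above the Mkl1 level in SMCs and was -1.65 ± 1.25 log2 units relative to it in pericytes. Every SMC library, at 0.59 to 1.51, lay above every pericyte library, at -2.98 to 0.03. The difference of 2.62 log2 units had a two-sided exact permutation p of 0.0286, the smallest that 4 against 4 libraries allow, and an adjusted p of 0.0571 over the 2 ratios tested (Benjamini-Hochberg). Beside the other ratio's exact p of 0.457, no outcome for this ratio could have passed 0.05. Pericyte replicate 2, the highest of the pericytes, was the library in which both genes were at nearly the same level.

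**Figure D2:**
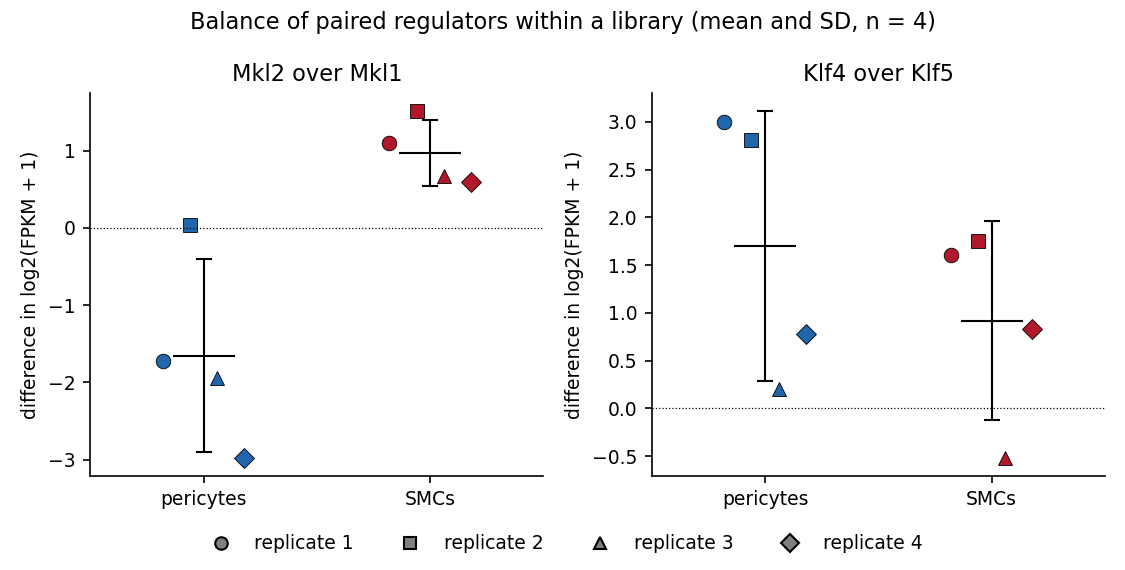
Difference in log2(FPKM + 1) between Mkl2 and Mkl1 (left) and between Klf4 and Klf5 (right) within each library, with the mean and SD (n = 4) of each cell type. The 4 SMC libraries sit at 0.59 to 1.51 for Mkl2 over Mkl1, all above the pericyte libraries, whereas Klf4 over Klf5 overlaps between the cell types.

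Mkl1 lies on chromosome 15 from 80842711 to 81021187 (minus strand) and Mkl2 on chromosome 16 from 13256574 to 13417622 (plus strand) in NCBI Build 37. Sgsm3 overlaps Mkl1 on the opposite strand, and whether reads were counted by strand is not given in the sources used here. Sgsm3 had 4.34 ± 1.16 FPKM in pericytes and 9.40 ± 4.59 FPKM in SMCs, the opposite direction to Mkl1. Gm15738, a noncoding transcript, overlaps Mkl2 on the opposite strand and leaned the same way as Mkl2, at 0.284 ± 0.240 FPKM in pericytes and 0.912 ± 0.850 FPKM in SMCs (limma q = 0.355). Leukocytes are known to make Mkl1, and the leukocyte markers moved with it between the cell types (5 of 8 called higher in pericytes, 2126 to 3629 against 836 to 1418 summed FPKM). In pericyte replicate 2, where Mkl1 was lowest among the pericyte libraries, the markers were highest among the pericytes by their summed level (3629 FPKM, to which Lyz2 gave the most) and lowest by their mean log2(FPKM + 1) (6.86 against 6.99 to 7.20). Their part in the difference was not tested.

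Klf4, the zinc finger factor that opposes myocardin and is also made in endothelium, macrophages and fibroblasts, was higher in SMCs. It had 18.1, 24.6, 13.7 and 9.79 FPKM in pericyte replicates 1 to 4 and 39.4, 30.9, 34.3 and 25.8 FPKM in SMC replicates 1 to 4. The groups were narrowly apart, with 24.6 FPKM the highest pericyte value and 25.8 FPKM the lowest SMC value. Means were 16.6 ± 6.36 FPKM and 32.6 ± 5.73 FPKM. The log2 fold change was 0.99 (standard error 0.27, 95% confidence interval 0.36 to 1.63, limma q = 0.0382). It kept its direction but lost the call without any of the libraries other than pericyte replicate 2 (limma q = 0.0506 to 0.0960), and with a pseudocount of 0.1 (limma q = 0.0516). Klf4 occupies 55540013 to 55545347 of chromosome 4 (NCBI Build 37, minus strand), and Klf5 occupies 99697910 to 99712624 of chromosome 14 (plus strand).

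Klf5, a growth-associated KLF of SMCs and epithelia, had the largest positive fold change of the 8 genes on the log2(FPKM + 1) scale, though by the ratio of mean FPKM it stood below Gata6 (4.01 against 7.68), and one of the widest spreads. Its values were 1.38, 2.65, 11.7 and 5.30 FPKM in pericyte replicates 1 to 4 and 12.3, 8.47, 49.8 and 14.0 FPKM in SMC replicates 1 to 4. Replicate 3 was the highest in both cell types, and pericyte replicate 3 exceeded SMC replicate 2. SMCs exceeded pericytes by a log2 fold change of 1.78 (standard error 0.68, 95% confidence interval 0.18 to 3.37, limma q = 0.116). It was called with a covariate that parts replicates 1 and 2 from 3 and 4 (limma q = 0.0257) and with the filter at 1 FPKM (limma q = 0.0356), and the difference was 1.93 log2 units within replicates 1 and 2 and 1.63 within replicates 3 and 4. The level of Klf4 over Klf5 was 1.70 ± 1.42 log2 units in pericytes and 0.92 ± 1.04 in SMCs, with overlapping groups (two-sided exact permutation p = 0.457).

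Gata6, a zinc finger factor known to hold vascular SMCs in a quiescent state and made also by some macrophages, was higher in SMCs at very low levels. It had 0.0703, 0.189, 0.0271 and 0.0390 FPKM in pericyte replicates 1 to 4 and 0.807, 0.487, 0.699 and 0.502 FPKM in SMC replicates 1 to 4. Every SMC library lay above every pericyte library, and no library reached 1 FPKM. The log2 fold change was 0.58 (standard error 0.09, 95% confidence interval 0.38 to 0.79, limma q = 0.00326), a scale that understates low genes, and the mean FPKM of SMCs was 7.68 times that of pericytes. With a pseudocount of 0.1 the log2 fold change was 2.05, and it was called without each library in turn (limma q = 0.00369 to 0.0126). A long noncoding RNA overlaps it on the other strand, at a mean of 0.0693 FPKM in pericytes and 0.192 FPKM in SMCs. Fibroblast and endothelial markers moved with Klf4, Klf5 and Gata6 between the groups (6 of 6 and 5 of 6 called higher in SMCs), and their part in these differences was not tested.

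Mef2c, a MADS box factor like SRF, was the one regulator called higher in pericytes, and the most abundant regulator there. It had 82.8, 61.4, 56.8 and 57.5 FPKM in pericyte replicates 1 to 4 and 21.7, 27.8, 23.8 and 34.2 FPKM in SMC replicates 1 to 4. The lowest pericyte library lay well above the highest SMC library. Means were 64.6 ± 12.3 FPKM in pericytes and 26.9 ± 5.48 FPKM in SMCs. Between the cell types the log2 fold change was -1.24 (standard error 0.18, 95% confidence interval -1.65 to -0.83, limma q = 0.00246), and limma q stayed between 0.00166 and 0.0355 in the 9 other settings and between 0.00287 and 0.00962 without each library in turn. B lymphocytes, endothelium and muscle fibres are known to make Mef2c. The leukocyte list moved with it (summed 2126 to 3629 FPKM in pericytes against 836 to 1418 FPKM in SMCs, with the B cell gene Cd79a at 415 to 1145 against 4.08 to 15.5 FPKM), and its part in the result was not tested. Endothelial markers moved the other way, and none of the 7 muscle fibre and satellite cell markers was called (limma, 0 of 7 at an unadjusted p below 0.05). The part of endothelium and of muscle fibres in the result was not tested either. Mef2c spans 83643033 to 83806684 on the plus strand of chromosome 13 of NCBI Build 37.

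**Figure D3:**
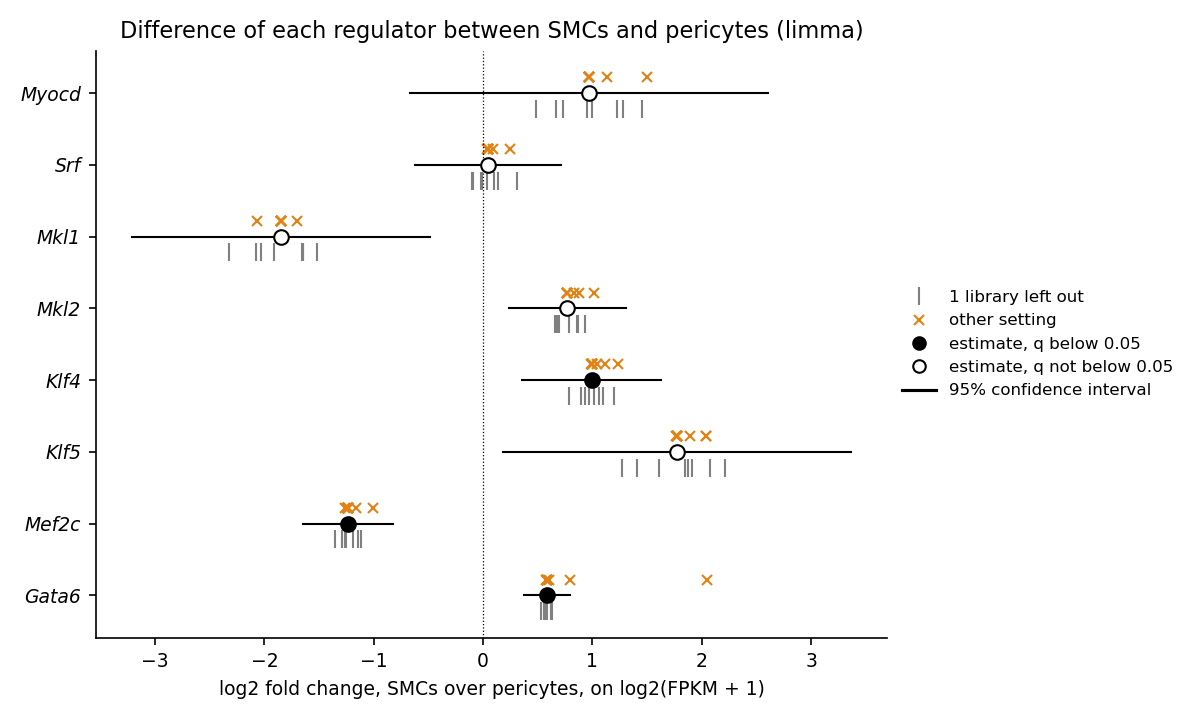
Log2 fold change of each regulator, SMCs over pericytes, with its 95% confidence interval, filled where q was below 0.05, and with the estimates when 1 library was left out (grey ticks) or another setting was used (orange crosses). Mef2c and Mkl1 lie below 0 throughout, Srf straddles 0, and the cross far to the right for Gata6 (2.05) is the pseudocount of 0.1.

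The order of the levels differed between the cell types. In pericytes the mean log2(FPKM + 1) ran from Mef2c (6.02) through Mkl1 (4.21), Klf4 (4.06), Mkl2 (2.55), Klf5 (2.36), Srf (1.56) and Myocd (1.08) to Gata6 (0.11). Among neighbours in that order, the ranges over libraries were apart between Mef2c and Mkl1 and between Klf4 and Mkl2, and the others overlapped. In SMCs the order was Klf4 (5.05), Mef2c (4.78), Klf5 (4.14), Mkl2 (3.32), Mkl1 (2.36), Myocd (2.05), Srf (1.61) and Gata6 (0.69), and the ranges of neighbours were apart between Srf and Gata6 alone. Mkl1 thus stood at place 2 in pericytes and at place 5 in SMCs. Among all genes tested, Mef2c stood at percentile 92.9 of the levels in pericytes and 86.7 in SMCs, Myocd at percentile 54.8 and 67.1, and Gata6 at percentile 23.8 and 48.1.

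Contractile genes that myocardin and SRF switch on were compared as a list of 16. They lay higher in SMCs in 16 of 16 cases, with a median log2 fold change of 1.38, but 3 of 16 were called, all higher in SMCs, against 11.2% of all genes tested. The largest was Cald1, the gene of the thin filament protein caldesmon, at 36.6 ± 20.9 FPKM in pericytes and 153 ± 95.9 FPKM in SMCs (log2 fold change 2.00, limma q = 0.0333). Itga8, an integrin subunit of SMCs, went from 2.35 to 11.4 FPKM in pericytes to 15.3 to 41.7 FPKM in SMCs (limma q = 0.0185). The other called gene was Tpm1, a tropomyosin (limma q = 0.0203). Among the 13 not called, Tagln, whose promoter drives Cre, had 165 to 551 FPKM in pericytes and 500 to 1569 FPKM in SMCs (limma q = 0.110). Acta2 had 764 ± 440 and 1951 ± 963 FPKM (limma q = 0.0979), and Myh11 had 39.9 ± 47.0 and 131 ± 157 FPKM (limma q = 0.577). With libraries rescaled to a common sum, Tagln (limma q = 0.0388) and Acta2 (limma q = 0.0314) were called. Markers of fibroblasts (6 of 6 called higher in SMCs) and of endothelium (5 of 6) moved with this list, and their part was not tested. The count of called genes rose to 8 with the filter at 1 FPKM and to 7 with libraries rescaled to a common sum, and fell to 1 without pericyte replicate 1, pericyte replicate 3 or SMC replicate 3.

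Contractile genes were set beside Myocd library by library. The mean log2(FPKM + 1) of the 16 genes was 4.65, 4.85, 4.64 and 5.84 in pericyte replicates 1 to 4, where Myocd stood at 1.14, 0.15, 1.02 and 2.01 on the same scale. In SMC replicates 1 to 4 the mean of the 16 genes was 5.38, 5.70, 6.76 and 7.47, where Myocd stood at 0.62, 1.29, 2.79 and 3.51. In both cell types replicate 4 was the highest for both measures. Mural markers had a mean of 2.38, 2.25, 3.14 and 3.71 in the pericyte libraries and 3.19, 3.43, 4.83 and 5.40 in the SMC libraries. Endothelial markers had a mean of 3.06, 2.81, 2.70 and 3.66 in pericyte replicates 1 to 4 and 4.76, 5.28, 5.99 and 6.46 in SMC replicates 1 to 4, replicate 4 again being the highest in both lists and both cell types. In the SMC libraries the 3 lists ran in the same order as Myocd, and in the pericyte libraries they did not, since replicate 3 was the lowest for the contractile genes and above replicates 1 and 2 for the mural markers. The part of the mural and endothelial markers in the Myocd and contractile levels was not tested. Pericyte replicate 2 had the lowest Myocd of all libraries but the second highest contractile mean among the pericytes. The libraries fall into 2 groups of 4, and a correlation within a group was not tested.

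**Figure D4:**
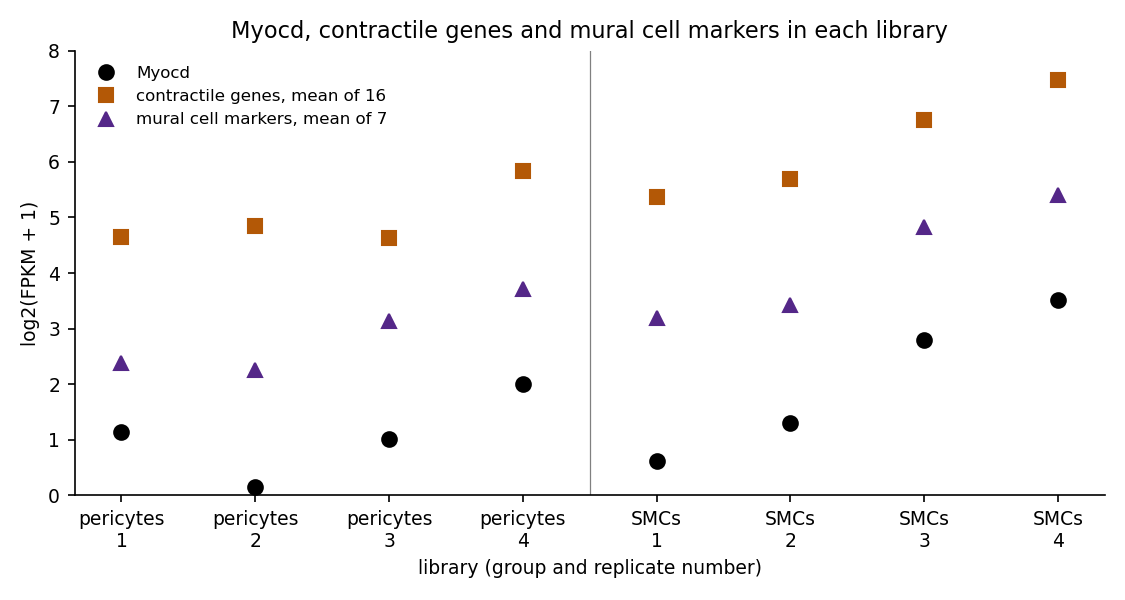
Myocd (black), the mean of 16 contractile genes (orange) and the mean of 7 mural cell markers (purple) as log2(FPKM + 1) in each library. Replicate 4 is highest within each cell type for the 3 measures, and Myocd runs from 0.15 in pericyte replicate 2 to 3.51 in SMC replicate 4.

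Immediate early genes, which SRF drives in part with the ternary complex factors, were compared as a list of 11. In this list 5 of 11 were called higher in SMCs and 1 of 11 higher in pericytes, against 11.2% and 10.6% of all genes tested. The 5 fell to 3 without SMC replicate 3 or SMC replicate 4. The matricellular genes Ctgf and Cyr61 had the largest differences among those called. Ctgf had 31.8 ± 21.6 FPKM in pericytes and 284 ± 95.3 FPKM in SMCs (log2 fold change 3.29, limma q = 0.00276), and Cyr61 had 85.8 to 153 FPKM in pericytes and 409 to 767 FPKM in SMCs (log2 fold change 2.25, limma q = 0.000959). Fos (limma q = 0.00430), Fosb (limma q = 0.0372) and Egr1 (limma q = 0.0224) were the others higher in SMCs. Fibroblast and endothelial markers moved with these genes (6 of 6 and 5 of 6 called higher in SMCs), and their part was not tested. Both cell types were sorted from muscle digested with collagenase and then trypsin. The part of this digestion in the levels of the immediate early genes was not tested. Junb was called higher in pericytes (log2 fold change -0.68, limma q = 0.0494), a call that was lost with quantile scaling (limma q = 0.574) and with libraries rescaled to a common sum (limma q = 0.220). Of the ternary complex factors, Elk3 was higher in SMCs, at 25.6 ± 11.1 against 9.94 ± 0.733 FPKM (limma q = 0.0317). Elk4 was higher in pericytes, at 22.7 ± 5.14 against 14.0 ± 1.97 FPKM (limma q = 0.0339, but 0.354 with libraries rescaled to a common sum), and Elk1 was not called. Leukocyte markers moved with Junb and Elk4 (5 of 8 called higher in pericytes), and their part was not tested.

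Other partners and regulators of SRF and myocardin were called in 9 of 24 entries (23 genes, of which Tead1 has 2 identifiers), 8 higher in SMCs and 1 higher in pericytes, against 11.2% and 10.6% of all genes tested, with a median log2 fold change of 0.79. The 8 fell to 4 without pericyte replicate 1 or SMC replicate 4 and to 5 without pericyte replicate 4 or SMC replicate 2, and rose to 13 with the covariate that parts replicates 1 and 2 from 3 and 4. The same fibroblast and endothelial markers moved with the genes higher in SMCs, and their part was not tested. After Fhl1, the largest was Wwtr1, the gene of the transcriptional coactivator TAZ, with 7.52 to 15.4 FPKM in pericytes and 44.3 to 69.2 FPKM in SMCs (log2 fold change 2.23, limma q = 0.000649). Pias1, a SUMO ligase, had 80.4 ± 11.8 FPKM in pericytes and 42.0 ± 3.68 FPKM in SMCs (limma q = 0.00197). Genes of actin control, which sets whether the MRTFs can leave the cytoplasm, were called in 7 of 13 cases, all 7 higher in pericytes, against 10.6% of all genes tested, with a median log2 fold change of -0.63. Pfn1, the gene of the actin-binding protein profilin, had 2625 to 6603 FPKM in pericytes and 1165 to 1530 FPKM in SMCs (limma q = 0.0122), and Cfl1, the gene of the filament-severing protein cofilin, had 1348 to 3112 FPKM in pericytes and 765 to 1008 FPKM in SMCs (limma q = 0.0371). The number called in this list fell to 3 with a pseudocount of 0.1, the replicate block and an intensity trend, and was 2 to 6 without 1 library (2 without SMC replicate 1), and the uncalled Actb, Actg1 and Rhoa turned to higher in SMCs with quantile scaling. Pfn1 and Cfl1 are abundant in leukocytes, whose markers moved with them (5 of 8 called, 2126 to 3629 against 836 to 1418 summed FPKM), and their part was not tested. The same markers moved with Pias1, where their part was not tested either.

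**Figure D5:**
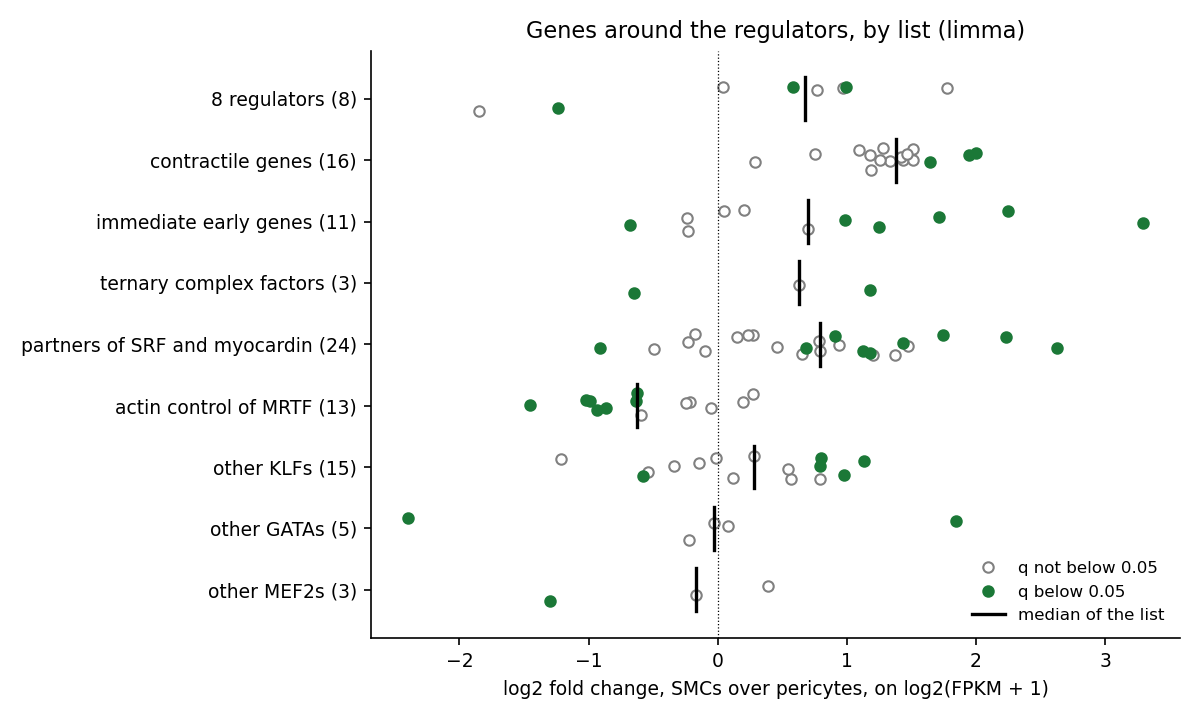
Log2 fold change, SMCs over pericytes, of each gene of the 8 regulators and of 8 lists around them, filled where q was below 0.05, with the median of each list as a bar and the number of genes in brackets. Contractile genes lie to the right of 0 and 11 of 13 genes of actin control lie to the left, of which Actb, Actg1 and Rhoa change side with quantile scaling.

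Relatives of the regulators were measured as well. Of 15 other KLF genes, 4 were called higher in SMCs and 1 higher in pericytes, beside a background of 11.2% and 10.6%. Klf10, which TGF-β induces, had 55.7 to 82.0 FPKM in pericytes and 129 to 146 FPKM in SMCs (log2 fold change 0.97, limma q = 0.00135). Klf9 (log2 fold change 1.13, limma q = 0.0413), Klf7 (0.80, limma q = 0.0167) and Klf12 (0.80, limma q = 0.00773) were also higher in SMCs, and Klf16 was higher in pericytes (-0.58, limma q = 0.0391). With the replicate block Klf9 was not called (limma q = 0.0576). Klf2, the flow-responsive KLF of endothelium and of lymphocytes, had 15.6 ± 8.92 FPKM in pericytes and 17.5 ± 3.44 FPKM in SMCs and was not called (limma q = 0.658). The KLF genes higher in SMCs moved with the fibroblast markers (6 of 6 called) and the endothelial markers (5 of 6 called), whose part was not tested. Leukocyte markers moved with Klf16 (5 of 8 called higher in pericytes), and their part was not tested either.

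Among the other GATA factors, Gata2 and Gata3 moved in opposite directions. Gata3, a T lymphocyte factor, had 12.9 to 32.8 FPKM in pericytes and 1.47 to 5.75 FPKM in SMCs (log2 fold change -2.40, limma q = 0.00338). Gata2, a factor of endothelium and blood progenitors, had 1.89 to 2.72 FPKM in pericytes and 4.71 to 20.2 FPKM in SMCs (log2 fold change 1.84, limma q = 0.0245). With the replicate block Gata2 was not called (limma q = 0.0513). Gata1, Gata4 and Gata5 were not called. Leukocyte markers moved with Gata3 and endothelial markers with Gata2 (5 of 8 and 5 of 6 called), and their part was not tested. The calls of Klf9, Klf16 and Gata2, like those of Cald1, Junb, Elk3, Elk4 and Cfl1, were lost without 5 to 7 of the 8 libraries taken singly (limma q up to 0.114). Mef2d was lower in SMCs, as Mef2c was, at 6.54 ± 1.49 FPKM against 17.3 ± 1.22 FPKM in pericytes (log2 fold change -1.30, limma q = 0.000785), whereas Mef2a had 21.5 ± 14.4 FPKM in pericytes and 24.0 ± 4.78 FPKM in SMCs (limma q = 0.665). The leukocyte markers moved with Mef2d as well, and their part was not tested.

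Likeness of pattern was measured as the root mean square difference between the log2(FPKM + 1) profiles of 2 genes over the 8 libraries, each centred on its own mean, among 13612 genes whose mean reached 1 FPKM. The nearest genes to Myocd were B230120H23Rik (0.20 log2 units) and Pde4c (0.22). Mkl1 was nearest to Tcof1 (0.16) and Tfip11 (0.16), Mkl2 to Pgm1 (0.17) and Marveld1 (0.18), and Srf to Ppp1r9b (0.11) and 1110003E01Rik (0.13). Klf4 was nearest to Dhdh (0.13) and Ckap4 (0.15), and Mef2c to Prps2 (0.15) and Tinf2 (0.15). Klf5 had no gene as near, with Sox9 at 0.39 and Aldh3a1 at 0.48. Gata6 was below the mean of 1 FPKM and was not compared.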

How the data were processed

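Hindlimb muscle was minced and digested with collagenase and then trypsin, and pericytes and SMCs were sorted from the cell suspension. Their RNA was amplified with a SMART-Seq kit before Nextera XT library construction. The authors checked reads with FastQC, aligned them with Bowtie2 and TopHat to mouse NCBI Build 37, and deposited FPKM per gene and library, neither log transformed nor filtered. The program that computed FPKM is not given in the sources used here. Gene positions come from GENCODE version M1 on the same build.

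Values were taken as log2(FPKM + 1), with a pseudocount of 1, and 27414 genes above 0 in at least 1 library entered limma (version 3.58.1, R version 4.3.3), with lmFit, eBayes and Benjamini-Hochberg adjustment. P-values measure the spread between libraries, each pooled from several sorts. On simulated data for this comparison, run on 27414 genes, the test called 63 of 66 genes changed by 4 log2 units, 38 of 67 changed by 2, 7 of 67 changed by 1, and 4 of 27214 unchanged genes. The 200 changed genes were drawn from those with a mean log2(FPKM + 1) above 2, a level that Myocd, Srf and Gata6 did not reach. They were far fewer than the 5977 genes called in the data, so these shares are not the power of the test in the data. Ratios were compared by exact permutation in Python 3.11.15 (numpy 2.4.6, pandas 2.3.3), and figures were made with matplotlib 3.10.9. The larger lists were described by counts beside the share of all genes called. That share is lower than among genes whose mean reached 1 FPKM (5331 of 13612 called).

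The other settings used 0.1 as pseudocount, kept genes reaching 1 FPKM in 4 or more libraries, scaled by quantiles, to a common sum (TPM) or by median ratios, added the replicate number as a block or a covariate that parts replicates 1 and 2 from 3 and 4, used limma's intensity trend, dropped genes at 0 throughout either cell type, or left out 1 library. The regulators, the lists and the settings were chosen with earlier results of these data known. Named genes include the 8 regulators, Klf2 and Mef2a as uncalled relatives and Fhl2 and Myl9 for their promoters and Tpm1, Fos, Fosb and Egr1 to complete short counts, and Vcl, Egr2 and Hopx for their promoters (these chosen after their values were seen), the called members of the KLF, GATA, MEF2 and ternary complex factor lists, up to 2 called genes per direction with the largest fold change from each other list, and the 2 nearest genes to each regulator. Markers of cell types, genes overlapping a regulator and some uncalled list members (Actb, Actg1, Rhoa, Elk1, Gata1, Gata4 and Gata5) are named as well. Tagln, Acta2 and Myh11 were added after their values were seen.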

Additional observations from a re-analysis of the deposited data

How the results depend on the processing

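Mef2c and Gata6 kept their direction and their call in every setting that could be fitted and without each library in turn, and Gata6 could not be fitted with the filter at 1 FPKM. Myocd and Srf were not called in any setting. The log2 fold change ranged, without 1 library, from 0.49 to 1.45 for Myocd, from -0.10 to 0.31 for Srf, from -2.32 to -1.52 for Mkl1, from 0.66 to 0.93 for Mkl2, from 0.78 to 1.20 for Klf4 and from 1.27 to 2.21 for Klf5. Klf4 lost its call with a pseudocount of 0.1 (1.04, q = 0.0516). Mkl1 was called with a pseudocount of 0.1 (-2.07, q = 0.0476) and, at -1.85, with the filter at 1 FPKM (q = 0.0161), the replicate block (q = 0.0117), replicates 1 and 2 against 3 and 4 as a covariate (q = 0.00352), an intensity trend (q = 0.0468) and without genes listed at 0 in a whole group (q = 0.0485). Mkl2 was called, at 0.77, with the filter (q = 0.0345), the covariate (q = 0.0439) and without genes at 0 (q = 0.0425), with quantile scaling (0.83, q = 0.0325) and with a common sum (1.01, q = 0.0239). Klf5 was called, at 1.78, with the filter (q = 0.0356), the replicate block (q = 0.0132) and the covariate (q = 0.0257). The filter tests fewer genes, and the cause of the other changes was not tested.

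Regulators called higher in SMCs numbered 2, or 1 with a pseudocount of 0.1, 3 with the filter, quantile scaling, a common sum, the replicate block or without genes at 0, 4 with the covariate and 1 to 3 without 1 library. Regulators called higher in pericytes numbered 1, or 2 with a pseudocount of 0.1, the filter, the replicate block, the covariate, an intensity trend or without genes at 0, and 1 to 2 without 1 library. Over the 90 entries of the 8 lists together, 22 were called higher in SMCs and 13 higher in pericytes, against 11.2% and 10.6% of all genes tested. In either direction 35 of 90 were called, beside 5331 of the 13612 genes whose mean reached 1 FPKM. The 22 became 12 to 19 without 1 library. The 13 became 6 with a pseudocount of 0.1, 7 with the replicate block, 6 with an intensity trend and 5 to 12 without 1 library. With a pseudocount of 0.1, 1421 genes in place of 728 were higher in SMCs by fold and q value. Of the 20 other genes named by rule, 12 were called without each library in turn and 8 (Cald1, Junb, Elk3, Elk4, Cfl1, Klf9, Klf16 and Gata2) were not called without 5 to 7 of the libraries (q up to 0.114). Among called genes, 51.2% were higher in SMCs, and 63.8% with a common sum, which moved the median log2 fold change of genes whose mean reached 1 FPKM from -0.05 to 0.16.

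As a check of pairing, the deviations of libraries sharing a replicate number correlated across genes at a mean of 0.327 (0.0794 to 0.474 over 4 pairs), and 5 of 8 libraries correlated best with their own number, which is a hint of pairing from the data and not from the design. The numbers were not taken to pair the samples, since 1 pair lay below the limit of 0.1 set for every pair and no label ties the numbers to animals or sorts. The replicate block moved the count of called genes from 5977 to 6153. Paired by number, the Mkl2 to Mkl1 difference had the same sign in 4 of 4 pairs, with an exact sign-flip adjusted p of 0.250, a test that 4 pairs could not bring below 0.05 whatever their values. On the log2 scale, none of the 20 groups of 4 libraries checked held a value past the critical value of Dixon's test (0.829). This does not cover the FPKM scale. FPKM hides the number of reads, which limits what can be said of Gata6 and Myocd.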
